A study of Mus musculus with 40 samples.

Results

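The comparison described here set the subcutaneous white adipose tissue of mice that stayed on a high-fat diet (HFD) and received tirzepatide against the same tissue of mice fed a normal diet (ND), the lean level. It took 16 of the 40 libraries of the study, 8 from HFD-fed tirzepatide mice and 8 from ND-fed mice, and all 15807 genes with enough counts to be tested. The question was which genes stayed away from the lean level on the side that HFD alone had moved them to, which went past it, and which differed from it without a call for HFD. The other groups of 8 libraries each were HFD-fed mice given semaglutide, HFD-fed mice moved back to ND (the diet switch) and HFD-fed mice without treatment. The labels name no drug for the HFD and ND mice, while the tirzepatide mice carried both the diet and the drug, so the difference from ND holds the effects of both. The library names run in consecutive blocks by group, so any effect of library order cannot be told apart from that of the group. Strain, sex, age, dose, length of treatment, feeding state and time of day at collection are not stated in the labels.

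Tirzepatide is an agonist of the receptors for GIP and GLP-1, gut hormones released after a meal that raise insulin secretion and lower food intake. Subcutaneous white fat stores triglyceride. In mice it also makes fatty acids from glucose, through citrate, acetyl-CoA and malonyl-CoA, on a lean, carbohydrate-rich diet, and this pathway is known to be low on a diet that already supplies fat. The tissue carries a circadian clock in which ARNTL (BMAL1) with CLOCK switches on Per, Cry and Rev-erb genes whose products then switch the pair off again, and the clock genes are known to shift with feeding time.

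The libraries were 3′ tag libraries, which give a single tag near the end of each transcript, so levels are given as CPM, the count of a gene scaled to a library of fixed size, and compared between groups for a single gene and never between genes. Coordinates are given on GRCm38 (mm10). Total counts ran from 2115471 to 7445548 per library with tirzepatide and from 2879055 to 4466926 on ND. The adipocyte markers fitted the label of the tissue: all 18 were present in both groups. Of these 18, 2 were called higher and 1 lower (median log2 fold change 0.12), against 4.3% and 5.77% of all genes. The summed level of 14 skeletal muscle genes lay between 138 and 3510 CPM (median 1160) with tirzepatide and between 142 and 4920 CPM (median 289) on ND. Their mean log2 CPM exceeded 5 in 4 tirzepatide and 2 ND libraries, and 0 of the 12 tested members were called between the groups by edgeR, DESeq2 or limma-voom, and 0 had an unadjusted p under 0.05 (median log2 fold change -0.22). The summed level of 9 B cell genes lay between 76.2 and 345 CPM with tirzepatide and between 164 and 2570 CPM on ND, where replicate 5 stood apart from the other ND libraries. The first axis of variation among libraries of the same group, which held 11.6% of the variance within groups, was scored from -19.7 to 36 (median 18.4) with tirzepatide. What this axis reflects was not tested. On ND the scores ran from -49 to 3.9, with replicates 1 to 4 between -49 and -24.1 and replicates 5 to 8 between -4.4 and 3.9. That axis differed between the groups, so a fit that holds it constant can remove part of the difference between them as well. The results of such a fit are given beside the named genes whose call it ended.

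**Figure D1:**
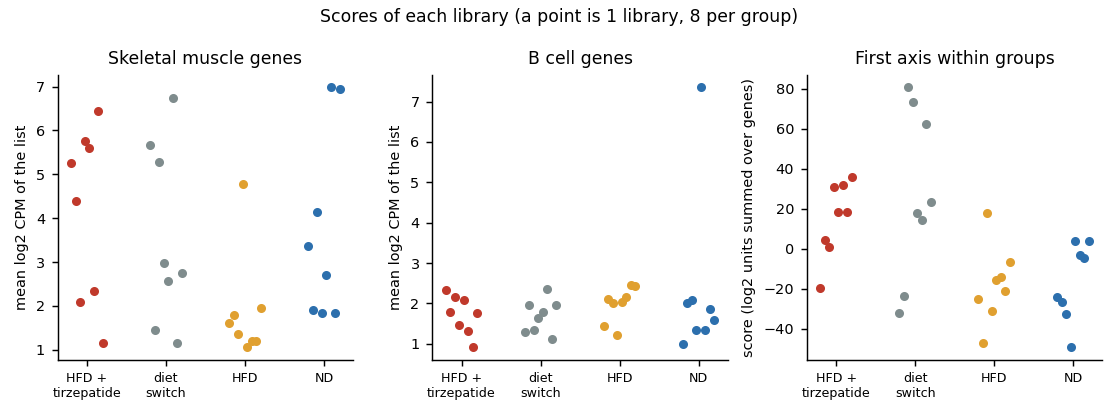
Mean log2 CPM of skeletal muscle genes and of B cell genes, and the score on the first axis among libraries of a group, in each library (a point is 1 library, 8 per group). Muscle genes were high in 4 tirzepatide and 2 ND libraries, B cell genes in ND replicate 5, and the axis scores were mostly above 0 with tirzepatide and mostly below it on ND.

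Tirzepatide-treated fat differed from lean fat at 1591 of the 15807 genes, or 10.1% (edgeR quasi-likelihood test, adjusted p under 0.05 over all genes). Of these, 679 (4.3%) were higher and 912 (5.77%) lower than on ND. The median size of a called difference was 0.82 on the log2 scale, and 571 calls exceeded a 2-fold difference. The ranges of the 8 tirzepatide and the 8 ND libraries did not overlap at 235 genes (1.49%), of which 227 were called. The number of calls fell to 569 without the 6 muscle-high libraries of these groups (those of the other groups were also left out) and to 448 with the first axis as a covariate. With the muscle score as a covariate and all libraries kept, it was 1494. It was 1046 without ND replicate 4 and 1054 without tirzepatide replicate 4. The labels number 8 samples per group without saying that each came from a separate animal, so the p-values cover the spread among the deposited samples only, which may be technical.

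HFD alone differed from ND at 712 genes (4.5%; 2.83% higher and 1.68% lower), and the same 8 ND libraries serve both comparisons, so the following counts describe the overlap of calls and test nothing. Of the 712 genes, 141 (19.8%) were still called on the same side of the lean level with tirzepatide, 35 were called on the opposite side, and 536 (75.3%) did not pass the test against ND. Of those 536, 384 were also called between tirzepatide and HFD, a comparison that called 20.5% of all genes. The 536 were selected with the same HFD and tirzepatide libraries, which favours such calls, so that share is no yardstick for them. Of the 447 genes higher on HFD, 67 (15%) stayed higher with tirzepatide, and of the 265 genes lower on HFD, 74 (27.9%) stayed lower. The 265 include 17 major urinary protein genes and the 74 include 16 of them. These near-identical copies count as a single observation, so they inflate the share that stayed lower. A further 936 genes were called against both ND and HFD without a call for HFD itself, 386 of them higher and 550 lower with tirzepatide than on ND. The other 479 genes called against ND, 220 higher and 259 lower, were called neither on HFD nor between tirzepatide and HFD. The missing calls do not show that these 479 lay at the HFD level. Without the muscle-high libraries there were 60 genes away, 6 past and 331 different from both. With the first axis as a covariate there were 87, 9 and 224. The 35 past genes fell to between 19 and 23 when ND replicate 2, 3, 4, 6 or 7 alone was left out, and the 936 to 600 without tirzepatide replicate 4.

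**Figure D2:**
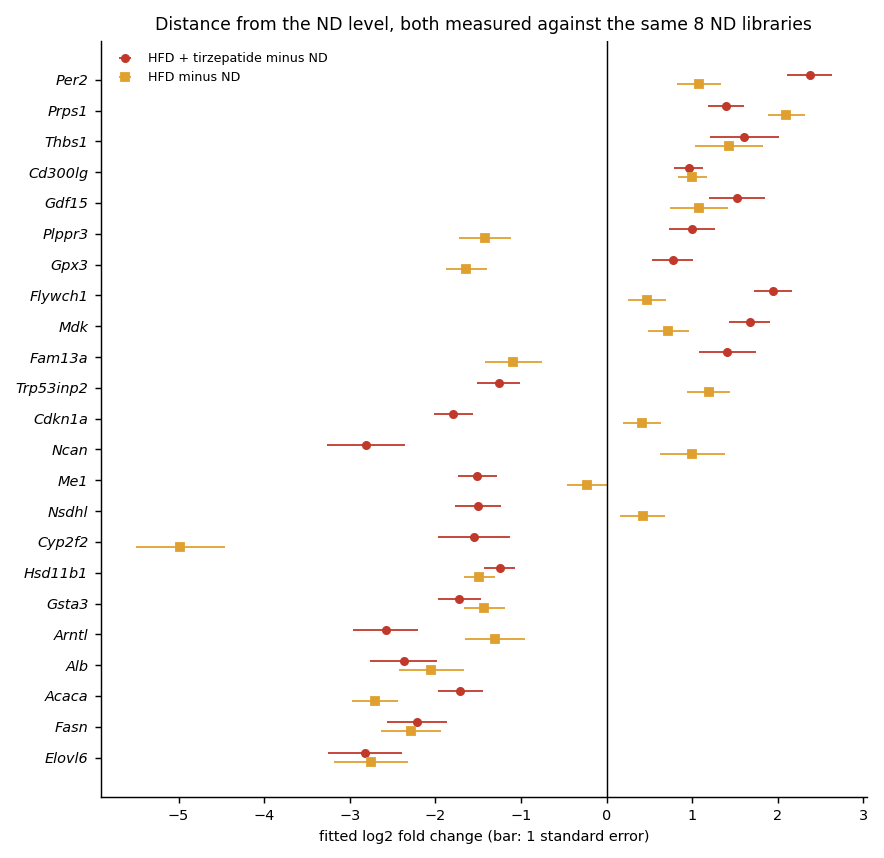
Fitted log2 fold changes against ND of 23 named genes with tirzepatide (circles) and on HFD alone (squares), with bars of 1 standard error. Both columns of values use the same 8 ND libraries. Genes such as Fasn, Elovl6 and Hsd11b1 lay at a like distance below ND in both groups, Plppr3, Gpx3 and Trp53inp2 lay on opposite sides of it, and Flywch1, Cdkn1a and Ncan were called with tirzepatide and not on HFD.

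The enzymes that build fatty acids stayed far below the lean level. Of 12 tested members of the fatty acid synthesis list, 9 were called lower with tirzepatide and 0 higher, against 5.77% and 4.3% of all genes. The median log2 fold change was -1.62, against -0.004 over all genes. The counts were also 9 lower without the muscle-high libraries and without ND replicate 5, and 8 with the first axis as a covariate. Fatty acid synthase, encoded by Fasn (chr11:120805846-120824547, minus strand), had between 345 and 2412 CPM (median 838) with tirzepatide, against 2936 to 6859 CPM (median 4577) on ND. No tirzepatide library reached the lowest ND library. The log2 fold change was -2.22 ± 0.35 (SE; adjusted p = 6.77e-05), beside -2.29 ± 0.35 for HFD alone, and tirzepatide and HFD did not differ in the test of that difference (0.07 on the log2 scale, adjusted p = 0.913).

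Enzymes that feed Fasn were lower as well. ATP citrate lyase (Acly), which releases acetyl-CoA from citrate in the cytosol, had 65.1 to 288 CPM (median 101) with tirzepatide, against 345 to 975 CPM (median 634) on ND, again without overlap (log2 fold change -2.44 ± 0.34, adjusted p = 1.26e-05). Acss2 (chr2:155517948-155585724, plus strand), which makes acetyl-CoA from acetate, had 12.7 to 44 CPM (median 21.3) with tirzepatide, against 101 to 169 CPM (median 132) on ND. Its log2 fold change of -2.43 ± 0.32 (adjusted p = 5.23e-06) was lower than the -1.12 of HFD alone, and tirzepatide lay below HFD in the test of that difference (-1.31, adjusted p = 0.00258). Acetyl-CoA carboxylase (Acaca), which makes malonyl-CoA, showed the opposite order: 80.3 to 240 CPM (median 116) with tirzepatide, against 285 to 554 CPM (median 451) on ND. It was 1.71 log2 units below ND with tirzepatide (log2 fold change -1.71 ± 0.26, adjusted p = 2.92e-05) and 2.71 below it on HFD (-2.71 ± 0.27), so tirzepatide lay part of the way back (tirzepatide against HFD 1.00, adjusted p = 0.0051). Of the members that did not pass, Acacb, the mitochondrial carboxylase, had a log2 fold change of -0.29 (adjusted p = 0.441) after -1.26 on HFD, and Elovl5 and Mlycd had -0.25 and -0.02.

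The desaturases and elongases downstream differed in their level on HFD. Scd1, the stearoyl-CoA desaturase that adipocytes use most, had 3583 to 7422 CPM (median 5060) with tirzepatide, against 8869 to 16273 CPM (median 11071) on ND (log2 fold change -1.17 ± 0.20, adjusted p = 0.000145). HFD lay lower still at -1.80, and tirzepatide was above HFD (0.62, adjusted p = 0.022). Its paralog Scd2 (chr19:44293674-44306864, plus strand) had 46.9 to 161 CPM (median 65.4) with tirzepatide, against 242 to 488 CPM (median 344) on ND, without overlap. Scd2 was not called on HFD (-0.70, adjusted p = 0.166) but was 2.25 ± 0.29 log2 units lower with tirzepatide (log2 fold change -2.25, adjusted p = 4.36e-06). Elovl6, which lengthens palmitate to stearate, had 5.34 to 23.4 CPM (median 9.29) with tirzepatide, against 32.4 to 103 CPM (median 84.1) on ND (-2.82 ± 0.43, adjusted p = 5.83e-05), the lowest fold change of the list. Fads2, a desaturase of polyunsaturated fatty acids, did not overlap either (-0.82 ± 0.22, adjusted p = 0.0139), but its call did not pass without the muscle-high libraries (adjusted p = 0.118) or with the first axis as a covariate (0.0992).

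**Figure D3:**
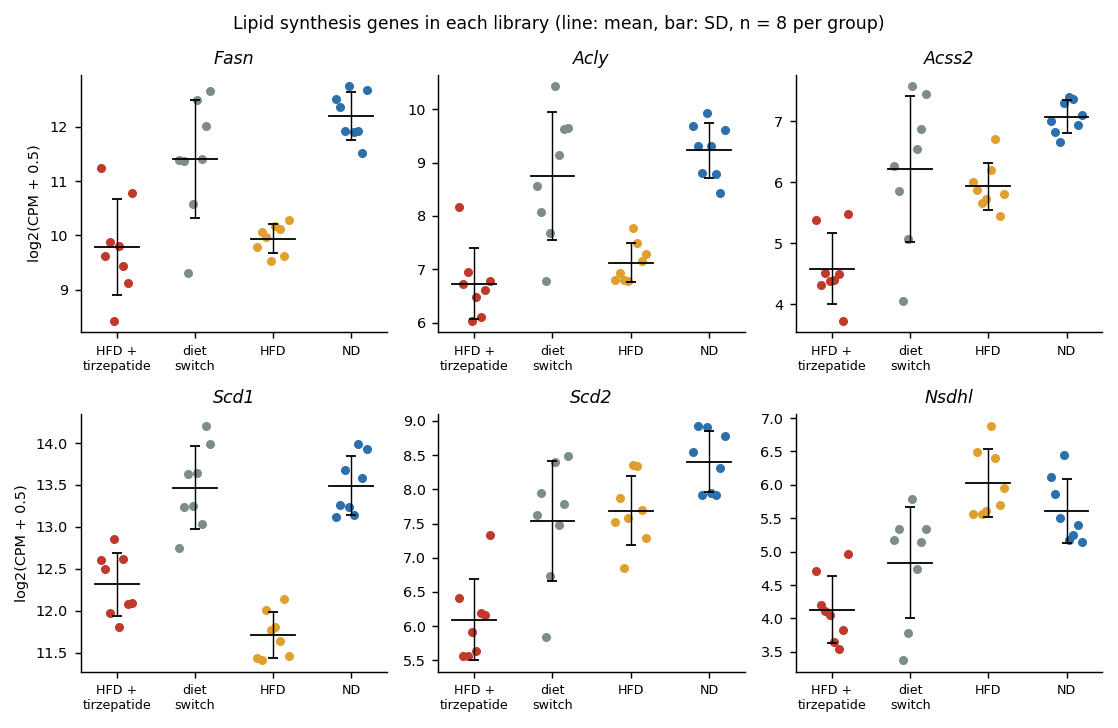
Levels of 6 lipid synthesis genes in each library as log2(CPM + 0.5), with the mean (line) and SD (bar) of 8 libraries per group. Tirzepatide libraries lie below ND in all 6 panels. HFD lies near tirzepatide for Fasn and Acly, below it for Scd1 and above it for Scd2, Acss2 and Nsdhl, and the diet switch lies nearer to ND for Fasn, Acly and Scd1.

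Enzymes that supply NADPH for these reactions were lower at 5 of 9 members and higher at 0 (median log2 fold change -0.48), against 5.77% and 4.3% of all genes. Me1, malic enzyme, had 69.8 to 158 CPM (median 93.5) with tirzepatide, against 200 to 390 CPM (median 295) on ND (-1.51 ± 0.23, adjusted p = 2.88e-05). Me1 was not called on HFD (-0.23, adjusted p = 0.656). Tkt, the pentose phosphate transketolase, was low with tirzepatide (-1.45 ± 0.25, adjusted p = 0.000148) and on HFD (-1.76). Pgd, 6-phosphogluconate dehydrogenase, was lower with tirzepatide by -1.13 ± 0.26 (adjusted p = 0.00431), but not with the first axis as a covariate (adjusted p = 0.0801), where 2 of the 9 members remained called lower; without the muscle-high libraries 3 did.

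Among 11 regulators of lipid synthesis, 3 were lower and 0 higher, against 5.77% and 4.3% of all genes. Thrsp (Spot 14) had 162 to 600 CPM (median 253) with tirzepatide, against 491 to 1084 CPM (median 715) on ND (-1.34 ± 0.24, adjusted p = 0.000365). Its partner Mid1ip1 had 8.42 to 31.6 CPM (median 17.1) with tirzepatide, against 39.7 to 133 CPM (median 62.5) on ND (-1.85 ± 0.26, adjusted p = 6.73e-06). Insig1, which holds SREBP precursors in the endoplasmic reticulum, was also lower (-1.01 ± 0.29, adjusted p = 0.0205), but not without the muscle-high libraries (0.216) or with the first axis as a covariate (0.112). The transcription factors themselves did not pass: Srebf1 had a log2 fold change of -0.94 ± 0.33 (adjusted p = 0.0653), which passed without tirzepatide replicate 5 (0.029) or 8 (0.0169), and Mlxipl (ChREBP) had -0.37 ± 0.17 (adjusted p = 0.156) after -1.10 on HFD.

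Triglyceride and pyruvate enzymes moved in a few members. Of 12 triglyceride synthesis enzymes, 3 were lower and 1 higher, against 5.77% and 4.3% of all genes. Dgat2, which adds the last acyl chain, had 460 to 1922 CPM (median 700) with tirzepatide, against 860 to 3834 CPM (median 1799) on ND, with overlapping ranges (-1.39 ± 0.27, adjusted p = 0.000908), whereas HFD lay at 0.09. Dgat1, the other acyltransferase of that step, had -0.12 (adjusted p = 0.67). Mogat2, a monoacylglycerol acyltransferase counted at 0 to 0.83 CPM with tirzepatide and 0 to 12.1 CPM on ND, was called lower at this low depth (-3.12 ± 0.71, adjusted p = 0.00331), but not without the muscle-high libraries (0.0781). Of 11 enzymes of glyceroneogenesis and pyruvate use, 4 were lower and 1 higher, against the same shares of all genes (5.77% and 4.3%). Ldha, lactate dehydrogenase, had 95.9 to 236 CPM (median 139) with tirzepatide, against 253 to 410 CPM (median 366) on ND, without overlap (-1.24 ± 0.15, adjusted p = 4.24e-07). Mpc2, a subunit of the mitochondrial pyruvate carrier, had 111 to 308 CPM (median 197) with tirzepatide, against 368 to 678 CPM (median 507) on ND (-1.33 ± 0.27, adjusted p = 0.00128). Pdk2, a kinase that switches off pyruvate dehydrogenase, was the member that rose (0.72 ± 0.17, adjusted p = 0.00507).

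Cholesterol synthesis enzymes were in part lower with tirzepatide. Of 19 enzymes, 9 were lower, 0 higher and 10 did not pass (median log2 fold change -0.92), against 5.77% lower and 4.3% higher of all genes. The count of lower enzymes was 8 without the muscle-high libraries, 10 without ND replicate 5 and 7 with the first axis as a covariate. On HFD 1 was higher and 0 lower (median -0.12), near the 2.83% and 1.68% of all genes called there. Nsdhl, a sterol dehydrogenase (chrX:72918557-72958514, plus strand), had 11.1 to 30.8 CPM (median 16.4) with tirzepatide, against 34.7 to 86.4 CPM (median 43.3) on ND, without overlap (-1.50 ± 0.27, adjusted p = 0.000414). Tm7sf2, a sterol reductase at low counts, had 0 to 1.66 CPM (median 0.547) with tirzepatide, against 1.47 to 6.01 CPM (median 4.19) on ND (-2.42 ± 0.46, adjusted p = 0.000496). Pmvk, phosphomevalonate kinase, Hsd17b7 and Lss, lanosterol synthase, had log2 fold changes of -1.09 ± 0.19, -1.37 ± 0.28 and -1.26 ± 0.29. Among the members that did not pass, Hmgcs1, an early enzyme of the pathway, had -0.18 ± 0.23 (adjusted p = 0.666) and Sqle, squalene epoxidase, -0.70 (0.117). Hmgcs1 had been raised on HFD (1.08), and tirzepatide lay below HFD (-1.26, adjusted p = 0.000148). Of 11 genes of cholesterol uptake, storage and efflux only Npc1, which exports cholesterol from lysosomes, was called (0.77 ± 0.17, adjusted p = 0.00244). That share, 9.09%, was near the 10.1% called over all genes.

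The 2 smallest adjusted p-values of all genes belonged to clock genes, Per2 and Nr1d2. Of 13 tested members of the core clock, 4 were higher and 3 lower, and of 8 clock output factors, 3 were higher and 1 lower, against 4.3% and 5.77% of all genes. The counts were 4 and 1, and 2 and 1, without the muscle-high libraries, and 5 and 2, and 3 and 1, with the first axis as a covariate. The members called higher were Per2, Per3, Nr1d2 and Ciart, all repressors, and those called lower were Arntl and Clock of the activator arm and the repressor Cry1. With the axis covariate Cry1 and Wee1 were no longer called and Nr1d1 and Dbp were; without the muscle-high libraries Clock, Cry1 and Wee1 were not called. To show sequence elements through which the clock is known to act, the 250 bases upstream of the RefSeq transcription start (GRCm38.p6) of 4 called genes are given 5′ to 3′ along the gene, with matches in capitals. The motifs searched, on both strands, were the E-box CACGTG bound by ARNTL with CLOCK (in 6.02% of all 32851 such windows), the D-box TTANGTAA bound by TEF, HLF and NFIL3 (2.06%) and the RORE TAGGTCA or TGGGTCA bound by ROR and Rev-erb proteins (5.38%). None of these motifs overlapped another in the windows shown, and a match is a description of the sequence, not a bound site.
Ciart, chr3:95882229-95882478, minus strand, E-box: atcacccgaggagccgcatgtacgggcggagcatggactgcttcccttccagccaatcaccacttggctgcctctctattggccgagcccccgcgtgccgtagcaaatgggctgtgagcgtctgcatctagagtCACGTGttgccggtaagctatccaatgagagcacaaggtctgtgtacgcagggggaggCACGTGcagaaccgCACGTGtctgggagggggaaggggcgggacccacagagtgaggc
Tef, chr15:81802423-81802672, plus strand, E-box: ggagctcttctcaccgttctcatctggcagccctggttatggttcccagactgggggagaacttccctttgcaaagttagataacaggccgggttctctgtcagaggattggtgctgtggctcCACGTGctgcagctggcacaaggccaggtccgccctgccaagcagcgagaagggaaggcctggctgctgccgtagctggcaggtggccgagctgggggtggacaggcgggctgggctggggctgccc
Per3, chr4:151044666-151044915, minus strand, D-box: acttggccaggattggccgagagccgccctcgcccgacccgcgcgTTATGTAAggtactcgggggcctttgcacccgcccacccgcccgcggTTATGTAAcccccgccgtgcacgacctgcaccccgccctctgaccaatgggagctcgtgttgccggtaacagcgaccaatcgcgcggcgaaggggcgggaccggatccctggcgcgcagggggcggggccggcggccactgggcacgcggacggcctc
Nfil3, chr13:52981040-52981289, minus strand, RORE read on the opposite strand: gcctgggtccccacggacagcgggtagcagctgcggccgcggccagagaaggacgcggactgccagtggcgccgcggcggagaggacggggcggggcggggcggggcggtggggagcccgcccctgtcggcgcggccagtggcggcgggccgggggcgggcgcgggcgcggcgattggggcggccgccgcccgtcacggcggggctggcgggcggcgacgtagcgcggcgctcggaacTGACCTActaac
Ciart held 3 E-boxes and Tef 1, Per3 held 2 D-boxes, and Nfil3 held 1 RORE whose last base lay 6 bases upstream of the start. The table was matched by symbol, and the 4 genes are shown because they hold a match. Of 20 clock genes looked up, 16 had an entry, and 9 of those held none of the 3 motifs, among them the called genes Arntl, Clock, Nr1d2 and Hlf. An E-box was found for 5 genes, Cry1 among them, which was called lower.

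Per2 (chr1:91415982-91459324, minus strand), a period repressor, had 16.7 to 65.1 CPM (median 39.1) with tirzepatide, against 2.86 to 9.82 CPM (median 7.46) on ND. All 8 tirzepatide libraries lay above all 8 ND libraries, with a log2 fold change of 2.37 ± 0.26 (adjusted p = 5.02e-08). HFD alone was also above ND (1.08, adjusted p = 0.00734), and tirzepatide above HFD (1.29, adjusted p = 0.000161). Per3, the gene with the D-boxes above, had 64.6 to 107 CPM (median 84.4) with tirzepatide, against 13.7 to 36.7 CPM (median 25.7) on ND (1.73 ± 0.20, adjusted p = 1.26e-07). Nr1d2 (Rev-erb beta), a repressor of Arntl, had 35.5 to 80.5 CPM (median 52.2) with tirzepatide, against 11.3 to 18.5 CPM (median 16.4) on ND (1.78 ± 0.20, adjusted p = 5.02e-08). Ciart, a circadian repressor with the E-boxes above, had 2.71 to 12.6 CPM (median 5.48) with tirzepatide, against 0.769 to 2.7 CPM (median 1.39) on ND (2.02 ± 0.41, adjusted p = 0.00112). Neither Per3, Nr1d2 nor Ciart was called on HFD (adjusted p of 0.0562, 0.0585 and 0.404), although all were above ND there. Nr1d1, Per1 and Cry2 did not pass with tirzepatide (0.84 ± 0.34, 0.49 ± 0.24 and 0.34). Nr1d1 passed without ND replicate 1 (1.18, adjusted p = 0.0202) and with the first axis as a covariate (1.41, 0.00445), and Per1 without ND replicate 4 (0.92, 0.00157).

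The activator Arntl (chr7:113207465-113314126, plus strand) had 0.968 to 9.16 CPM (median 2.76) with tirzepatide, against 12 to 41.2 CPM (median 21.1) on ND, without overlap (-2.58 ± 0.38, adjusted p = 1.01e-05). HFD lay between them (-1.30, adjusted p = 0.0183 against ND; tirzepatide against HFD -1.29, adjusted p = 0.0121). Npas2, a partner of ARNTL that can stand in for CLOCK, was below the filter and was not tested; its summed count was 3 in the 8 tirzepatide libraries and 83 in the 8 ND libraries, with 0 to 0.537 CPM and 1.31 to 5.65 CPM. Clock and Cry1 were called lower by small margins (-0.52 ± 0.17, adjusted p = 0.036, and -0.92 ± 0.30, adjusted p = 0.0434), and each lost its call when any of 9 single libraries was left out (adjusted p up to 0.0829 for Clock and 0.106 for Cry1). Without the muscle-high libraries their adjusted p-values were 0.308 and 0.339, and with the axis covariate that of Cry1 was 0.0716.

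Among the output factors, Tef and Hlf, activators that bind D-boxes, rose: Tef had 163 to 357 CPM (median 240) with tirzepatide, against 43.5 to 148 CPM (median 98.2) on ND (1.47 ± 0.19, adjusted p = 2e-06). Hlf had 37.4 to 71 CPM (median 55) with tirzepatide, against 13.4 to 32 CPM (median 22.1) on ND (1.27 ± 0.19, adjusted p = 1.59e-05). Nfil3, the repressor of the same element, had 0 to 2.1 CPM (median 0.6) with tirzepatide, against 2.87 to 15.7 CPM (median 7.81) on ND (-3.01 ± 0.50, adjusted p = 8.83e-05). On HFD none of these 3 was called (0.27, 0.06 and -0.57). Wee1, a cell cycle kinase under clock control, was called at 1.10 ± 0.33 (adjusted p = 0.0264), but not when any of 4 single libraries was left out (up to 0.0643), without the muscle-high libraries (0.116) or with the axis covariate (0.0669). Dbp, the third D-box activator, was counted at 0.246 to 5.41 CPM with tirzepatide and 0 to 2.57 CPM on ND and did not pass (1.34 ± 0.51, adjusted p = 0.0846). The diet switch lay near tirzepatide for Per2 (36.2 CPM on average; tirzepatide against the switch 0.06, adjusted p = 0.944) and Arntl (-0.60, adjusted p = 0.519). The collection time of each animal is not given, so time of day and treatment cannot be told apart for these genes.

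**Figure D4:**
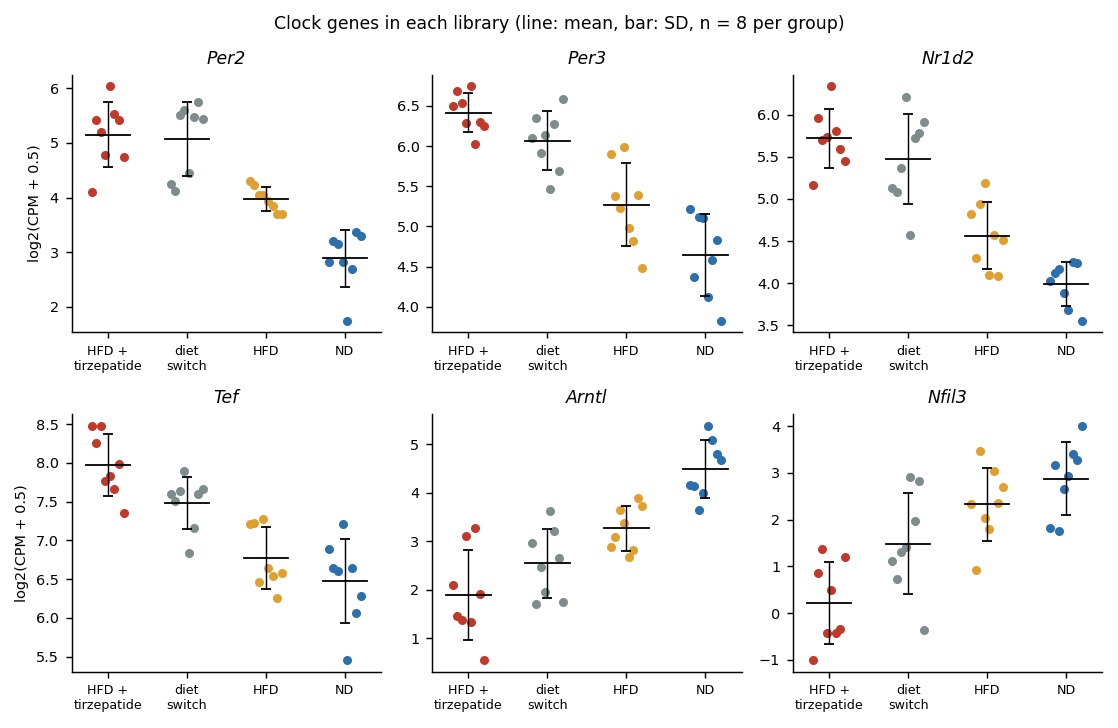
Levels of 6 clock genes in each library as log2(CPM + 0.5), with the mean (line) and SD (bar) of 8 libraries per group. Per2, Per3, Nr1d2 and Tef are higher and Arntl and Nfil3 lower with tirzepatide than on ND without overlap, and HFD lies between them in each panel.

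The other genes that stayed on the HFD side of the lean level had varied roles. Prps1 (chrX:140456613-140476140, plus strand), which makes the phosphoribosyl precursor of nucleotides, had 137 to 192 CPM (median 167) with tirzepatide, against 49.5 to 79.2 CPM (median 62.6) on ND (1.39 ± 0.21, adjusted p = 2.47e-05), below the HFD level of 272 ± 49.9 CPM (SD, n = 8). Cd300lg, a receptor of endothelial cells, had 125 to 222 CPM (median 174) with tirzepatide, against 62.6 to 113 CPM (median 89.6) on ND (0.96 ± 0.17, adjusted p = 0.000298), and HFD at 1.00 was level with tirzepatide. Ypel5 was higher by 0.62 ± 0.14 (adjusted p = 0.00314), and Plin5, a lipid droplet protein of oxidative cells, by 1.20 ± 0.27 (adjusted p = 0.00283). Gdf15, a stress-induced hormone, was higher by 1.52 ± 0.33 (adjusted p = 0.0025), though not without the muscle-high libraries (adjusted p = 0.0522). Thbs1, a matricellular protein, Arap3, a regulator of small GTPases, and Gpihbp1, the capillary anchor of lipoprotein lipase, did not overlap with ND and rose by 1.61 ± 0.40, 0.75 ± 0.18 and 0.75 ± 0.20. With the first axis as a covariate their adjusted p-values were 0.107, 0.0746 and 0.185, and without the muscle-high libraries those of Thbs1 and Arap3 were 0.166 and 0.0548.

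On the low side, the genes named by the rule were of several kinds. Hsd11b1 (chr1:193221634-193264075, minus strand), which regenerates active glucocorticoid inside cells, had 31.7 to 53.7 CPM (median 39.1) with tirzepatide, against 78.3 to 127 CPM (median 93.2) on ND (-1.25 ± 0.18, adjusted p = 6.73e-06), beside -1.49 on HFD. It was also below the diet switch (-0.78, adjusted p = 0.0229). Of 19 xenobiotic metabolism enzymes, 4 were higher and 3 lower with tirzepatide (median -0.12), against 4.3% and 5.77% of all genes. Without the muscle-high libraries these counts were 2 and 1, and with the axis covariate 2 and 2. Gsta3, a glutathione transferase and a low member, had 11.3 to 25.8 CPM (median 17.9) with tirzepatide, against 36.3 to 78.7 CPM (median 64.7) on ND (-1.72 ± 0.25, adjusted p = 7.99e-06). Among the high members, Ces1f, a carboxylesterase, had 0.86 ± 0.24 (adjusted p = 0.017; 0.183 with the axis covariate), and Gstt1, a glutathione transferase below ND on HFD (-0.71), had 0.65 ± 0.17 (adjusted p = 0.0128; 0.0734 without the muscle-high libraries). Rbp4, the carrier of retinol, was lower with tirzepatide (-1.57 ± 0.22, adjusted p = 7.5e-06) than on HFD (-0.81; difference -0.76, adjusted p = 0.0113). Sorl1, a sorting receptor, and Alb, albumin, did not overlap with ND (-2.18 ± 0.42 and -2.37 ± 0.39, adjusted p = 0.000893 and 0.000111). Cyp2f2, a cytochrome P450, lay between HFD and ND, with 17.5 to 70.9 CPM (median 41.6) with tirzepatide, against 52.2 to 248 CPM (median 118) on ND and 4.3 ± 3.62 CPM (SD, n = 8) on HFD. Its call against ND (-1.55 ± 0.42, adjusted p = 0.0169) did not pass without the muscle-high libraries (0.142) or with the axis covariate (0.166).

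Of 17 tested major urinary protein genes, which encode pheromone carriers made mainly in liver, 16 were lower with tirzepatide (median log2 fold change -1.95), beside 17 lower on HFD (median -3.12). They are near-identical copies that share reads, so they count as a single observation. Mup1 had 4.15 to 52.7 CPM (median 12.5) with tirzepatide, against 32.5 to 193 CPM (median 54.5) on ND (-1.95 ± 0.53, adjusted p = 0.0165; 0.0526 without ND replicate 3). The count was 0 of 19 without the muscle-high libraries (median -2.12) and 0 of 17 with the axis covariate (median -1.91), at nearly the same fold change.

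The genes that went past the lean level were fewer. Trp53inp2 (chr2:155381059-155389850, plus strand), an autophagy factor of the adipose expansion list, was above ND on HFD (1.19 ± 0.25) and below it with tirzepatide, at 46.6 to 162 CPM (median 89.9), against 98.9 to 287 CPM (median 253) on ND (-1.26 ± 0.25, adjusted p = 0.00124). All 8 tirzepatide libraries lay below the ND median. Plppr3, a phospholipid phosphatase-related membrane protein (chr10:79860475-79874634, minus strand), was below ND on HFD (-1.42 ± 0.30) and above it with tirzepatide, at 11.9 to 19.6 CPM (median 16.1), against 4.91 to 10.3 CPM (median 7.95) on ND (1.00 ± 0.27, adjusted p = 0.015). Without the muscle-high libraries its adjusted p was 0.123. Gpx3, the secreted glutathione peroxidase, had 475 to 857 CPM (median 664) with tirzepatide, against 256 to 515 CPM (median 370) on ND and 123 ± 43.8 CPM (SD, n = 8) on HFD. Its call against ND (0.77 ± 0.24, adjusted p = 0.029) was lost without ND replicate 4 (0.0522), ND replicate 5 (0.0529) or tirzepatide replicate 3 (0.0594), without the muscle-high libraries (0.115) and with the axis covariate (0.102).

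Several genes were called against ND with tirzepatide and not on HFD, which does not show that HFD left them unchanged. Cdkn1a (p21), an inhibitor of the cell cycle (chr17:29090976-29100727, plus strand), had 40 to 155 CPM (median 83) with tirzepatide, against 165 to 409 CPM (median 278) on ND (-1.79 ± 0.23, adjusted p = 1.78e-06), with HFD at 0.41 (adjusted p = 0.344). Ncan, a chondroitin sulfate proteoglycan, had 0.452 to 3.76 CPM (median 0.968) with tirzepatide, against 3.77 to 20.3 CPM (median 9.97) on ND (-2.81 ± 0.46, adjusted p = 7.5e-05). On HFD it lay at 1.00 ± 0.38 (adjusted p = 0.145), and with tirzepatide it was also below the diet switch (-2.03, adjusted p = 0.0245). Gas6, a ligand of TAM receptors, fell by 1.49 on the log2 scale (SE 0.29, adjusted p = 0.00085), and its receptor Mertk rose by 0.69 ± 0.17 (adjusted p = 0.00622), a call not kept with the axis covariate (0.0932). Angptl8, an insulin-induced regulator of lipoprotein lipase, had 0.226 to 4.43 CPM (median 1.96) with tirzepatide, against 1.72 to 62.1 CPM (median 19) on ND (-3.47 ± 0.68, adjusted p = 0.0011). G0s2, the inhibitor of the lipase ATGL, was lower by -1.79 ± 0.35 (adjusted p = 0.000918). Without the muscle-high libraries Angptl8 and G0s2 had adjusted p-values of 0.061 and 0.0715. The processed pseudogene Eif1-ps2 was lower as well (-1.74 ± 0.32), but its reads cannot be separated with confidence from those of Eif1.

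On the high side, Flywch1, a zinc finger protein (chr17:23752793-23771602, minus strand), had 142 to 355 CPM (median 263) with tirzepatide, against 43.2 to 94.5 CPM (median 62.4) on ND (1.94 ± 0.22, adjusted p = 1.26e-07). Mdk, the growth factor midkine (chr2:91929805-91932297, minus strand), had 18.4 to 40.9 CPM (median 30.1) with tirzepatide, against 4.62 to 16.3 CPM (median 9.01) on ND (1.67 ± 0.24, adjusted p = 7.5e-06). Neither of them overlapped with ND. Mdk was also above the diet switch (1.36, adjusted p = 0.00201), a comparison in which 63 genes (0.399%) were called. Bhlhb9 and Garre1 rose by 1.72 ± 0.32 and 1.41 ± 0.20 (adjusted p = 0.000414 and 5.93e-06). Fam13a, a gene linked to fat distribution in people, rose by 1.41 ± 0.33 (adjusted p = 0.0054), with HFD at -1.09 ± 0.33 (adjusted p = 0.0511), but its adjusted p was 0.0819 with the axis covariate. Ppara, the receptor that drives fatty acid oxidation, rose by 1.03 ± 0.28 (adjusted p = 0.0144). It was the 1 called member of 19 fatty acid oxidation genes (median 0.12). That share, 5.26%, was below the 10.1% called over all genes, so the count says little about the list.

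Many genes that HFD had moved did not pass the test against ND with tirzepatide. Leptin (Lep), the adipocyte hormone that rises with fat mass, had 257 to 705 CPM (median 526) with tirzepatide and 147 to 1110 CPM (median 650) on ND, against 1839 ± 134 CPM (SD, n = 8) on HFD (tirzepatide against ND -0.44 ± 0.29, adjusted p = 0.355). ND replicate 5 gave the lowest ND value, and Lep was called lower (-0.60, adjusted p = 0.048) once the libraries high in B cell genes were left out of all groups. Adipsin (Cfd), a complement protease, had 4317 to 11265 CPM (median 6767) with tirzepatide and 4050 to 8232 CPM (median 4810) on ND, against 790 ± 537 CPM (SD, n = 8) on HFD (0.32 ± 0.32, adjusted p = 0.58). Oxtr, the oxytocin receptor, Mest and Sfrp5, both markers of fat expansion, and Slc2a4, the insulin-responsive glucose transporter, had log2 fold changes against ND of -0.79 ± 0.47, 0.04 ± 0.47, 0.28 ± 0.38 and 0.20 ± 0.15 (adjusted p of 0.305, 0.972, 0.703 and 0.424). On HFD they had been at 3.24, 2.17, 1.82 and -0.58. The adipocyte genes Adipoq, Plin1, Fabp4 and Cidec lay at -0.06, -0.08, 0.10 and 0.15 and did not pass. These genes were at levels not separable from ND at this spread, and with standard errors between 0.15 and 0.47 for those named first, differences of that size cannot be told from 0.

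Immune and matrix genes were mixed. Of 18 lipid-associated macrophage genes, 4 were higher and 0 lower (median 0.30), against 4.3% and 5.77% of all genes. On HFD 7 were higher, against 2.83% of all genes. The summed level of the list was not raised: its median was 5690 CPM with tirzepatide, 7120 on ND and 9740 on HFD. Gpnmb, a lysosomal glycoprotein of lipid-loaded macrophages, had 80.9 to 399 CPM (median 283) with tirzepatide, against 42.6 to 145 CPM (median 79.5) on ND (1.61 ± 0.33, adjusted p = 0.00166), and Trem2, their lipid receptor, had 10.6 to 23.7 CPM (median 17.1), against 2.51 to 12.6 CPM (median 4.89) on ND (1.56 ± 0.45, adjusted p = 0.0231). Itgax and Atp6v0d2 were called at 0.93 ± 0.30 and 1.74 ± 0.54, and each lost its call when any of 9 single libraries was left out (adjusted p up to 0.112 and 0.0659). The pan-macrophage gene Cd68 had 0.35 (adjusted p = 0.473). Without the muscle-high libraries 0 of the 18 were called, with adjusted p-values of 0.0697 for Gpnmb and 0.165 for Trem2. With the first axis as a covariate 4 were called, of which 2 were the same genes: Gpnmb and Trem2 stayed called, Itgax (0.112) and Atp6v0d2 (0.121) did not, and Lipa and Cd63 were called there. In whole tissue more cells of a type and more RNA per cell cannot be told apart. Ubd, the ubiquitin-like modifier FAT10, had 2.69 to 16.6 CPM (median 6.89) with tirzepatide, against 0.754 to 8.58 CPM (median 1.24) on ND and 77.2 ± 28 CPM (SD, n = 8) on HFD, and its call against ND (1.59 ± 0.49, adjusted p = 0.0332) was lost when any of 9 single libraries was left out (up to 0.0847), without the muscle-high libraries (0.262) and with the axis covariate (0.261). Il1rn, the interleukin 1 receptor antagonist, was higher by 1.81 ± 0.51 (adjusted p = 0.0185; 0.113 without the muscle-high libraries and 0.0524 with the axis covariate), and Orm1, an acute-phase protein, was lower by -1.18 ± 0.26 (adjusted p = 0.00247; 0.0607 without them).

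Of 18 collagen genes, 6 were lower and 0 higher with tirzepatide (median -0.56), against 5.77% and 4.3% of all genes. On HFD 0 were called, but only 4.5% of all genes were called there, so that 0 says little. The basement membrane chain Col4a2 had 206 to 492 CPM (median 294) with tirzepatide, against 220 to 713 CPM (median 571) on ND (-0.81 ± 0.17, adjusted p = 0.00182), and its partner Col4a1, which shares the promoter region, had -0.70 ± 0.16 (adjusted p = 0.00329; 0.122 without the muscle-high libraries). Col1a1 and Col3a1, the main fibrillar chains, had -0.56 ± 0.25 (adjusted p = 0.155) and -0.24 (0.384). The count of lower collagens with tirzepatide was 3 without the muscle-high libraries, 8 without ND replicate 5 and 2 with the first axis as a covariate. Acta2, smooth muscle actin, was lower by -1.43 ± 0.34 (adjusted p = 0.00662; 0.0669 with the axis covariate).

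The receptor for GIP, one of the targets of the drug, was low in these libraries. Gipr (chr7:19156061-19166127, minus strand) had 1.2 to 4.93 CPM (median 3.56) with tirzepatide, against 0 to 1.76 CPM (median 0.743) on ND (2.09 ± 0.56, adjusted p = 0.0127), beside 1.83 on HFD, and tirzepatide and HFD differed by 0.26 (adjusted p = 0.755). All 8 tirzepatide libraries lay above the ND median, and the call did not pass without the muscle-high libraries (0.132) or with the axis covariate (0.0932). Glp1r was below the filter.

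**Figure D5:**
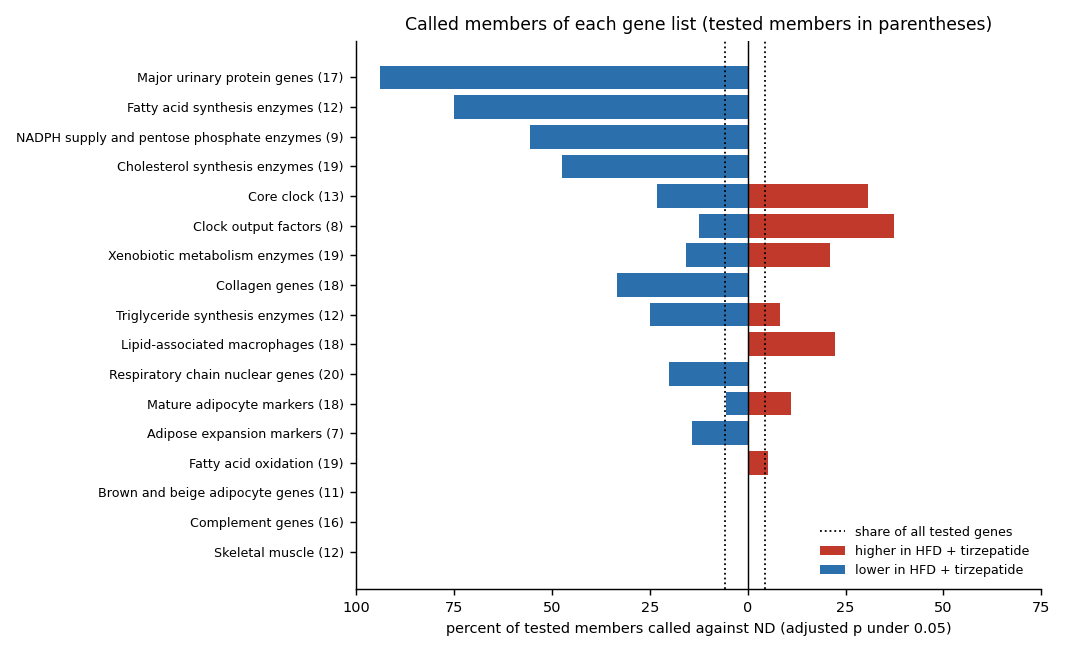
Percent of tested members called higher (right) or lower (left) with tirzepatide than on ND in 17 gene lists, with the number tested in parentheses and the shares of all tested genes (4.3% higher, 5.77% lower) as dotted lines. Lipid and cholesterol synthesis and the near-identical major urinary protein genes lie far to the left, the clock lists on both sides, and fatty acid oxidation, brown and beige adipocyte, complement and muscle genes hold 1 call or none.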

How the data were processed

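RNA from 40 samples of subcutaneous white adipose tissue was made into Lexogen QuantSeq libraries and sequenced on an Illumina instrument, per the labels' protocols. The authors deposited a table of raw counts per gene symbol (unit counts, not normalized), made on the mm10 build per the submitters' processing notes. The aligner and counter are not named there. A second, normalized table was not used; 16 of its columns carry names of no library listed here. The sample of each count column was taken from its library name in the labels. Of 34843 symbols, 31404 were given GRCm38 coordinates from GENCODE M21.

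Counts of all 40 libraries were fitted together with edgeR 4.0.16 (R 4.3.3): the default filter on low counts kept 15807 genes holding 99.39% of the counts, TMM scaling was used, with 1 mean per group, and quasi-likelihood tests were adjusted by Benjamini-Hochberg over all genes (threshold 0.05). CPM are per library size after TMM. All tests were two-sided, and ± after a log2 fold change is its standard error. It was derived from the test, as the absolute log2 fold change divided by the square root of the F statistic. Library totals ran from 2115471 to 7445548 counts in the 2 groups compared, so genes near 1 CPM rest on a few counts per library. The test was also run on simulated counts with known fold changes. These counts were drawn independently from the fitted spread, without muscle, B cell or first-axis differences between libraries. The simulation therefore cannot say how the test behaves where such differences are present. No pair of libraries in a group agreed within sampling noise (smallest chi-square per degree of freedom 5.75).

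Named genes were the 12 highest and 12 lowest called genes without overlap and with a mean log2 CPM of at least 2, leaving out Gm, Rik and Mup symbols, up to 8 per direction of the away, past and different-from-both classes under the same filters, up to 4 called members per list with members that define it, and a panel. Genes such as Npas2 were also named after their values were seen. Some named genes are not reported here. The comparison, members and lists were chosen with earlier results of these data known. Alternatives tried were DESeq2 1.42.0, its size factors, other filters, only the 16 libraries, limma-voom (limma 3.58.1), a replicate block, a fold change of 1.5 as the null, each library left out, libraries high in muscle or B cell genes (mean log2 CPM above 5) left out, the muscle score as a covariate, and mitochondrial, rRNA and hemoglobin genes left out. The first axis of variation within groups as a covariate was added after seeing the data.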

Additional observations from a re-analysis of the deposited data

Results flagged for a closer look

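In 218 sets of 8 libraries (105 tested genes that the text names and 4 library measures, in each of the 2 groups) the highest or lowest library was tested for a gap to its neighbour above Dixon's 95% critical value, and 26 (11.9%) were set apart, where chance gives about 1 in 20. The values are log2 CPM unless stated.

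With tirzepatide, replicate 1 was high for Acly (8.17), Pgd (7.58), Dgat2 (10.91) and Plin1 (11.48) and low for Mertk (4.88), and it held the highest share of counts from 18S rRNA, 12.7%. Replicate 4 was high for Garre1 (7.23) and low for Dbp (-0.39), Cidec (9.74) and Nrg4 (5.34), and replicate 8 was low for Mdk (4.24).

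On ND, replicate 5 was set apart most often. It was low for Per2 (1.76), Ypel5 (5.11), Rbp4 (7.69), Trp53inp2 (6.64), Col4a2 (7.79), Col4a1 (8.48), Lep (7.2), Sfrp5 (4.55), Plin1 (10.08) and Col3a1 (9.82), and the mean of its B cell genes was high (7.35). Fam13a (4.23) and Ces1f (3.94) were low in replicate 2, Atp6v0d2 was high in replicate 7 (3.57) and Per1 high in replicate 4 (6.54). The part of B cell rich tissue in the low values of replicate 5 was not tested. Without it the calls of Per2, Ypel5, Rbp4, Trp53inp2, Col4a1 and Col4a2 passed as before.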

How the results depend on the processing

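Among the 196 named genes, no called fold change changed sign under any of 29 alternatives in which the gene was tested. Of the 150 called genes among them, 35 stayed called under every alternative that tested them. With the muscle score as a covariate 144 of the 150 kept their call, and 73 did without the muscle-high libraries. Signs of called genes outside the named ones were not compared. The 1591 calls (679 higher, 912 lower) became 2451 (1054 and 1397) with limma-voom, 569 (267 and 302) without the muscle-high libraries, 448 (209 and 239) with the first axis as a covariate and 92 (21 and 71) against a null of a 1.5-fold change, which asks for more than a difference from 0. Leaving out single libraries gave 1046 to 1797 calls, 409 to 800 higher and 621 to 997 lower. The 141 away genes became 271 with limma-voom, 60 without the muscle-high libraries and 87 with the first axis (100 to 154 with single libraries left out). The 35 past genes became 16 with no filter, 77 with limma-voom, 6 without the muscle-high libraries, 19 with the muscle score, 9 with the first axis and 19 to 39 with single libraries left out. The 936 genes different from both ND and HFD became 1560, 331 and 224 with limma-voom, without the muscle-high libraries and with the first axis, and 600 to 1053 with single libraries left out. DESeq2 called 1910 genes, and 1116 passed with no filter. Leaving out the muscle-high libraries also leaves fewer libraries, 4 with tirzepatide and 6 on ND. The cause was not tested for this or any other of these changes. The class counts were not run with only the 16 libraries or with the 1.5-fold null.

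Libraries of the 2 groups share replicate numbers, but same-numbered libraries did not deviate together (correlations from -0.064 to 0.214, own number best in 2 of 8), so they share only a number. With a replicate block 1810 genes were called, 761 higher and 1049 lower. Depth limits genes of a few counts per library, such as Npas2, Mogat2 and Glp1r.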

Other observations

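Some lists showed few calls or none against ND. Over all genes 10.1% were called, so short lists would hold few calls in any case and 0 calls says little about them. None of 11 brown and beige adipocyte genes, 16 complement genes, 13 mitochondrially encoded genes and 10 T and NK cell genes passed with edgeR at an adjusted p under 0.05, where the median log2 fold changes were -0.17, -0.15, -0.25 and -0.76. At an unadjusted p under 0.05 each of these lists held 3 genes. DESeq2 called 0 in each, and limma-voom called 2, 1, 4 and 0. The directions of these medians are not stable: the T and NK cell median was 0.93 without ND replicate 5, the brown and beige median 0.32 and the mitochondrial one 0.13 without the muscle-high libraries, and the complement one 0.14 with the axis covariate. Of 20 nuclear respiratory chain genes, 4 were lower (median -0.26), against 5.77% of all genes. Among them were Sdhc of complex II (-0.85 ± 0.19, adjusted p = 0.0025) and Uqcrfs1 of complex III (-0.98 ± 0.24, adjusted p = 0.00708). Without the muscle-high libraries, and with the first axis as a covariate, 0 of the 20 were called.

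Insulin signalling and glucose transport genes held 3 higher and 1 lower of 20, against 4.3% and 5.77% of all genes. Irs1, the insulin receptor substrate, had 26.3 to 66.5 CPM (median 35.8) with tirzepatide, against 13.7 to 33.5 CPM (median 25.7) on ND (0.72 ± 0.20, adjusted p = 0.016), with HFD at -0.20. Its adjusted p was 0.0746 without the muscle-high libraries and 0.0534 without tirzepatide replicate 6. Nrg4, a growth factor released by fat, had 39.9 to 80.2 CPM (median 68.7) with tirzepatide, against 22.8 to 55.3 CPM (median 37.3) on ND (0.81 ± 0.20, adjusted p = 0.00779; 0.0862 with the first axis as a covariate). Retn, resistin, was lower with tirzepatide (-0.72 ± 0.19, adjusted p = 0.0102) and on HFD (-0.75), and did not pass without the muscle-high libraries (0.135) or with the first axis (0.163). Sod2, the mitochondrial superoxide dismutase, was lower with tirzepatide (-0.71 ± 0.16, adjusted p = 0.00227; 0.0667 without the muscle-high libraries), with HFD at 0.27.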
